A study of Mus musculus with 7 samples.

Results

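Fos, Fosb, Jun, Junb, Jund, Atf3, Egr1, Ier2, Dusp1 and Zfp36 are immediate early genes, whose transcripts rise within minutes when a cell is stimulated or handled. Their transcripts were followed here in fetal liver haematopoietic stem cells of the mouse with every probe set annotated to one of these genes alone, which gave 11 probe sets of 22626 and 10 genes of 12393. RNA came from livers at embryonic day 14.5. The 3 samples of the first group, TFIIA nc/nc (TFIIAα-βnc/nc in the labels), came from embryos homozygous for a non-cleavable TFIIAα-β, and the 4 wild-type samples from embryos with the normal protein. All embryos had heterozygous TFIIAα-βnc/+ parents, and littermates of one genotype were pooled, with 2, 2 and 4 embryos in TFIIA nc/nc replicates 1 to 3 and 1, 1, 4 and 3 embryos in wild-type replicates 1 to 4. Livers were dispersed after a PCR genotyping step, and cells that lacked lineage antigens and carried c-Kit, Sca-1 and CD150 went through 2 rounds of sorting before the RNA was taken, by one protocol for both groups. The labels name no strain and no litter shared between the groups, and they call the samples biological replicates, so p-values cover the spread between these pools.

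AP-1 is a dimer of basic leucine zipper proteins, in which a Jun protein pairs with another Jun, a Fos or an ATF protein and binds DNA. Kinases of the MAPK pathways switch the genes on through serum response factor, its ETS partners and CREB, and the induced transcripts are short-lived. Dusp1 and Zfp36 belong to the brake: Dusp1 removes the phosphates that activate MAP kinases, and Zfp36 binds AU-rich RNA and marks it for decay. Enzymatic or mechanical dispersal of a tissue is known to induce the same genes, and endothelial cells and blood stem cells both can express them. TFIIA stabilises TBP on promoters, TATA-containing promoters among them.

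Of the markers of the sort, Kit and Slamf1, which encodes CD150, gave a signal on every array by their brightest probe sets. Kit read 7.50 to 9.06 and Slamf1 6.12 to 6.92 on the log2 scale of RMA intensity, which is the scale of all levels here. Dimmer probe sets averaged 3.09 for Kit and 2.70 and 4.36 for Slamf1. The mean of 7 lineage genes was 2.44 to 2.76. Endothelial transcripts stood apart on 3 arrays: the mean of 19 endothelial markers was 6.61 in TFIIA nc/nc replicate 1, 7.02 in its replicate 2 and 6.76 in the first wild-type replicate, with 4.11 to 4.27 on the other 4 arrays. Of these 19 markers 16 read higher on those 3 arrays than on each of the other 4. The arrays were divided by the mean of the same markers, at a cut of 5.5, so that count is no separate evidence. The log2 of the summed intensity of the 19 markers was 9.36 to 11.88 in TFIIA nc/nc and 9.53 to 11.70 in wild type. RMA gives no zeros. The defining markers Cdh5 and Stab2 read 2.55 to 3.31 and 2.23 to 3.03 on the 4 low arrays. The mean of 14 hepatocyte markers was 3.92 to 4.60 on the same 3 arrays and 3.35 to 3.47 on the others, and that of 6 erythroid markers 3.56 to 3.98 against 3.41 to 3.52, while 15 macrophage markers averaged 2.79 to 4.37 without this division. By single markers 6 of the 14 hepatocyte and 1 of the 6 erythroid markers read above all other arrays on those 3, as 5.55% of all genes did. In the other direction 1 hepatocyte marker read below all others, as 4.87% of all genes did. Of 13 stem cell markers 4 read below all other arrays there, Kit, Procr, Hlf and Mllt3, as 4.87% of all genes did, and 1 read above. Kit read 7.50, 8.08 and 7.61 on the 3 arrays and 8.18 to 9.06 elsewhere. The part of these cell types in the levels of the immediate early genes was not tested beyond the endothelial covariate. Since the sort yields bulk RNA, a change in the number of expressing cells and a change in RNA per cell cannot be told apart.

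None of the 10 genes passed the test between the genotypes. In limma with Benjamini-Hochberg adjustment over all genes, 1 of 12393 genes passed (0.00807%), which was Galc (difference −3.54, SE 0.19), and over all probe sets 1 of 22626 passed (0.00442%), with 0 of the 11 member probe sets. Of the 10 genes 6 had a higher and 4 a lower mean in TFIIA nc/nc, with a median difference of 0.24 against −0.01 over all genes. The median of the 10 genes depended on the processing and lay between 0.02 and 0.32 under other settings. Adjusted for the endothelial mean it was 0.06, so a shift of the set was not settled. At an unadjusted limma p under 0.05 there was 1 member, Junb, where 4.65% of all genes reached that level. The groups did not overlap for Junb alone, with TFIIA nc/nc below wild type, as they did in that direction for 3.07% of all genes and in either direction for 6.3%. Every difference below is a log2 level, TFIIA nc/nc less wild type.

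**Figure D1:**
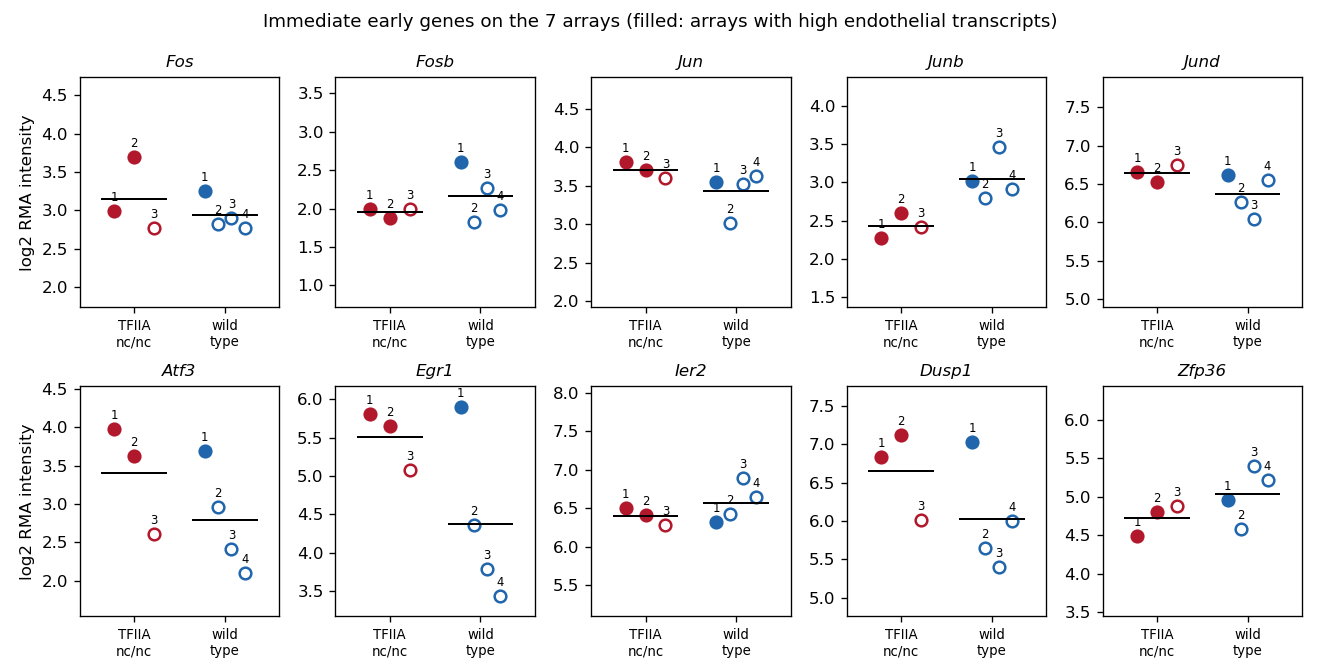
Log2 RMA intensity (vertical axis, each panel spanning 3 units) of the 10 genes on the 3 TFIIA nc/nc arrays (red) and 4 wild-type arrays (blue), 1 point per array with its replicate number, a line at the group mean and the brighter probe set for Jun. Filled points are the 3 arrays with high endothelial transcripts, which lie on top for Fos, Atf3, Egr1 and Dusp1, whereas the genotypes lie apart only for Junb.

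Fos, the AP-1 partner that needs a Jun protein to bind DNA, gave a dim signal, below the array median on every array. Its log2 level was 2.98, 3.70 and 2.77 in TFIIA nc/nc replicates 1 to 3 and 3.26, 2.81, 2.90 and 2.77 in wild-type replicates 1 to 4. The groups overlapped, with TFIIA nc/nc replicate 2 and wild-type replicate 1 the highest of the 7, and the difference was 0.21 (SE 0.23). Without TFIIA nc/nc replicate 2 the difference was −0.06, and without replicate 3 of that group 0.41. Fosb, a close relative of Fos, was dim on every array too, at 1.88 to 2.00 in TFIIA nc/nc and 1.82 to 2.60 in wild type (difference −0.21, SE 0.20). Wild-type replicate 1 was the highest array for Fosb, and the difference was −0.07 without it and −0.33 without wild-type replicate 2.

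The Jun genes went different ways, although none passed the test. Junb encodes a Jun protein that can restrain c-Jun and limits the proliferation of blood stem and myeloid cells. Its level was 2.28, 2.60 and 2.42 in TFIIA nc/nc replicates 1 to 3 and 3.01, 2.80, 3.46 and 2.91 in wild-type replicates 1 to 4. All 3 TFIIA nc/nc samples lay below all 4 wild-type samples, with means of 2.43 ± 0.16 (SD, n = 3) and 3.05 ± 0.29 (SD, n = 4), a signal 1.53-fold lower (difference −0.62, SE 0.19). The adjusted p was 0.934 in limma over all genes (unadjusted p = 0.00886). The probe set lay below the array median on every array, where RMA tends to understate differences. The difference was −0.62 (SE 0.21) with the endothelial mean as a covariate.

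Jund, the Jun family member that most cells express at rest, was above the array median on all 7 arrays. It read 6.66, 6.53 and 6.74 in TFIIA nc/nc replicates 1 to 3 and 6.62, 6.27, 6.04 and 6.55 in wild-type replicates 1 to 4 (difference 0.27, SE 0.17). The groups overlapped, with wild-type replicates 2 and 3 the lowest arrays, and without replicate 3 the difference was 0.16. Jun itself, which encodes c-Jun, was measured by a pair of dim probe sets that disagreed. The brighter one read 3.82, 3.70 and 3.60 in TFIIA nc/nc and 3.55, 3.02, 3.53 and 3.63 in wild type (difference 0.28, SE 0.18), with wild-type replicate 2 below the rest, and 0.14 without that array. The other read 2.63, 3.09 and 3.02 in TFIIA nc/nc and 4.19, 3.25, 2.31 and 2.88 in wild type (difference −0.25, SE 0.38), with wild-type replicate 1 the highest, and the difference was 0.10 without that array, −0.10 without TFIIA nc/nc replicate 1 and −0.53 without wild-type replicate 3. A direction for Jun was therefore not settled by these probe sets.

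Egr1, a zinc finger factor that keeps adult blood stem cells quiescent and in their niche, had the widest spread over the arrays of the 10 genes. Its log2 level was 5.81, 5.65 and 5.08 in TFIIA nc/nc replicates 1 to 3 and 5.90, 4.36, 3.79 and 3.44 in wild-type replicates 1 to 4. Wild-type replicate 1 lay above every TFIIA nc/nc sample and the other 3 wild-type samples below every one of them. The means were 5.51 ± 0.38 (SD, n = 3) and 4.37 ± 1.09 (SD, n = 4), a signal 2.20-fold higher in TFIIA nc/nc (difference 1.14, SE 0.51) that did not pass the test (limma, Benjamini-Hochberg adjusted p = 0.934, unadjusted p = 0.0503). The SD of Egr1 over the 7 arrays, 1.00, exceeded that of 98.97% of all genes, and the lowest and highest arrays were 5.49-fold apart.

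The size of the Egr1 difference moved with the endothelial transcripts and with the samples used. With the endothelial mean as a covariate it was 0.58 (SE 0.33), and on the 4 arrays with few endothelial transcripts it was 1.21 (SE 0.37), with a single TFIIA nc/nc sample assumed to vary as wild type does. On those 4 arrays TFIIA nc/nc replicate 3, at 5.08, stood above wild-type replicates 2 to 4, at 3.44 to 4.36. Without wild-type replicate 1 the difference was 1.65 (SE 0.27; limma, Benjamini-Hochberg adjusted p = 0.302), and with the pooled samples only, without both samples of 1 embryo, it was 1.90 (SE 0.25; limma adjusted p = 0.11). Other omissions lowered it, to 0.83 without wild-type replicate 4, 0.94 without wild-type replicate 3 and 0.99 without TFIIA nc/nc replicate 1. The samples also differed in the number of embryos. Egr1 read 4.36 to 5.90 in the 4 samples of 1 or 2 embryos and 3.44 to 5.08 in the 3 samples of 3 or 4, and with that number as a covariate the difference was 1.34 (SE 0.36; limma adjusted p = 0.447).

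**Figure D2:**
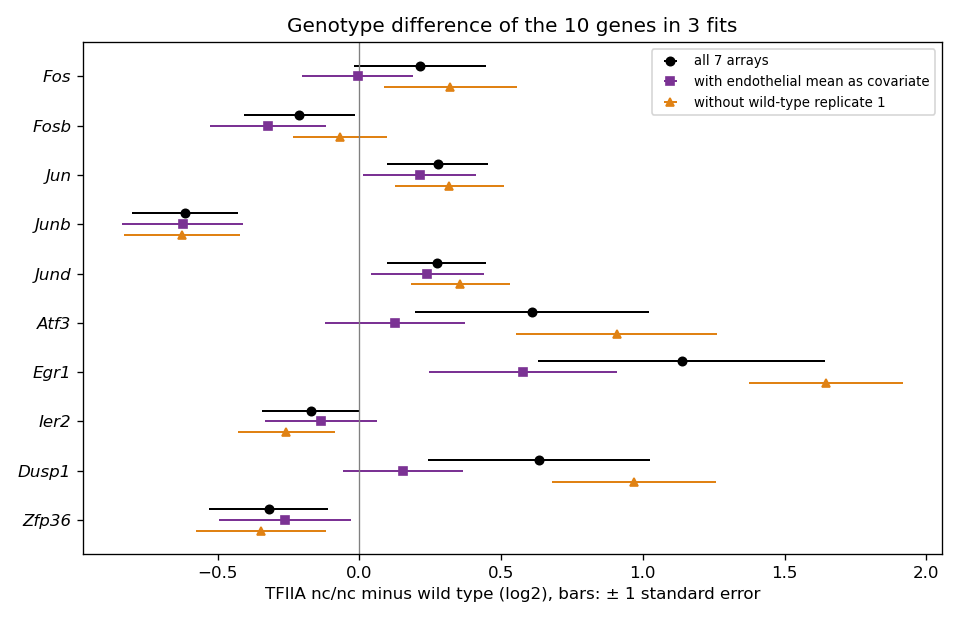
Difference between the genotypes (horizontal axis, log2, TFIIA nc/nc minus wild type) for the 10 genes, with bars of 1 standard error, from the fit on all 7 arrays (black), with the endothelial mean as a covariate (purple) and without wild-type replicate 1 (orange). The differences of Egr1, Atf3 and Dusp1, at 1.14, 0.61 and 0.63 on all arrays, moved to 0.58, 0.13 and 0.15 with the covariate, while Junb stayed at −0.62.

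Atf3 is a stress-induced bZIP factor that often acts as a repressor and pairs with Jun proteins. It read 3.98, 3.63 and 2.61 in TFIIA nc/nc replicates 1 to 3 and 3.69, 2.97, 2.42 and 2.10 in wild-type replicates 1 to 4 (difference 0.61, SE 0.41). The highest arrays were replicates 1 and 2 of TFIIA nc/nc and replicate 1 of wild type, and the groups overlapped. The difference was 0.13 with the endothelial mean as a covariate, 0.11 on the 4 arrays with few endothelial transcripts and 1.14 with pooled samples only. With 1 array left out it was 0.32 without TFIIA nc/nc replicate 1, 1.01 without its replicate 3 and 0.38 without wild-type replicate 4. Atf3 was dim, above the array median on 1 array.

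Dusp1, the MAP kinase phosphatase, was above the array median on all 7 arrays and repeated the pattern of Atf3. Its level was 6.83, 7.12 and 6.01 in TFIIA nc/nc replicates 1 to 3 and 7.03, 5.65, 5.40 and 6.01 in wild-type replicates 1 to 4 (difference 0.63, SE 0.39). TFIIA nc/nc replicate 3 and wild-type replicate 4 both read 6.01, and the 3 high arrays spanned both genotypes. The difference was 0.15 with the endothelial mean as a covariate, 0.97 without wild-type replicate 1, 0.40 without TFIIA nc/nc replicate 2 and 0.95 without its replicate 3.

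Zfp36, which encodes the RNA-binding protein tristetraprolin, and Ier2, a nuclear protein of the first wave, had lower means in TFIIA nc/nc. Zfp36 read 4.49, 4.80 and 4.88 in TFIIA nc/nc and 4.96, 4.59, 5.40 and 5.22 in wild type (difference −0.32, SE 0.21), and the difference was −0.59 with pooled samples only, −0.14 with array weights and −0.20 without TFIIA nc/nc replicate 1 or wild-type replicate 3. Ier2 read 6.51, 6.41 and 6.28 in TFIIA nc/nc and 6.31, 6.42, 6.90 and 6.65 in wild type (difference −0.17, SE 0.17). That difference was −0.06 without wild-type replicate 3, −0.11 without TFIIA nc/nc replicate 3 and −0.38 without the arrays of high endothelial transcripts. Wild-type replicates 3 and 4 were the highest arrays for both genes, and the groups overlapped. Both genes were above the array median on every array.

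The 10 genes did not move as one block from array to array. Fos, Egr1, Atf3 and Dusp1 each read higher on the 3 arrays with high endothelial transcripts than on any of the other 4, as 5.55% of all genes did. Those 3 arrays came from samples of 1 or 2 embryos, as did wild-type replicate 2. The samples of 3 or 4 embryos were all among the other 4 arrays. Embryo number and endothelial transcripts thus largely coincide, and their parts cannot be told apart here. None of the 10 read lower on all 3, as 4.87% of all genes did. On the 3 arrays Egr1 read 5.65 to 5.90 against 3.44 to 5.08 elsewhere, Dusp1 6.83 to 7.12 against 5.40 to 6.01, Atf3 3.63 to 3.98 against 2.10 to 2.97, and Fos 2.98 to 3.70 against 2.77 to 2.90. Junb, Ier2 and Zfp36 had their highest value in wild-type replicate 3, which is not among these arrays. The endothelial markers divide the arrays into separate clusters of 3 and 4, too few for a correlation within either, so no correlation with them is given.

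**Figure D3:**
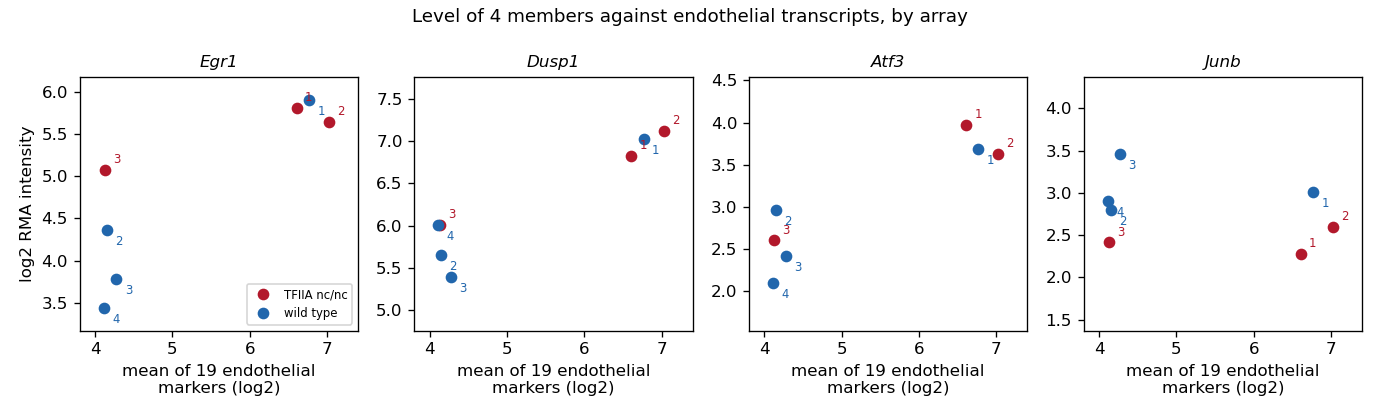
Log2 RMA intensity of Egr1, Dusp1, Atf3 and Junb (vertical axes, each spanning 3 units) against the mean log2 level of 19 endothelial markers (horizontal axis), 1 point per array with its replicate number, TFIIA nc/nc in red and wild type in blue. The 3 arrays at 6.61 to 7.02 on the horizontal axis lie above the other 4 for Egr1, Dusp1 and Atf3 but not for Junb, and TFIIA nc/nc replicate 3 has the highest Egr1 level of the 4 arrays on the left.

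Taking Fos as the reference, the level of each other member was compared with it over the 7 arrays, 9 relations in all. None had an adjusted p under 0.05. The closest was Dusp1 (Pearson's r = 0.77, exact permutation p = 0.0238, Benjamini-Hochberg adjusted p = 0.214; Spearman's rho = 0.67, exact permutation p = 0.12, adjusted p = 0.36). Without the 2 arrays farthest from the median of Fos, r for Dusp1 was 0.44, so the relation rested on those arrays. For Egr1 r was 0.62 (exact permutation p = 0.124, adjusted p = 0.373) and rho 0.70 (exact permutation p = 0.0897, adjusted p = 0.36), with r = 0.50 without those arrays. For Atf3 r was 0.64 (exact permutation p = 0.112, adjusted p = 0.373) and rho 0.72 (exact permutation p = 0.0778, adjusted p = 0.36), with r = 0.75. Fos itself was dim, which limits these relations.

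The promoters of 8 of the 10 genes were matched by symbol in a table of RefSeq promoters of build GRCm38.p6, and the 250 bases before the start were searched on both strands. Egr1 and Ier2 had no entry in that table, so their promoters were not searched. The share of all 32851 promoters with each motif follows. TATAAA, the TATA box that TBP binds, stood in 12.37% of all promoters and in that of Fos, from 33 to 28 bases before the start. On the same strand and wholly within 40 to 21 bases before the start, as in Fos, it stood in 1.866% of all promoters. TGACGTCA, the cAMP response element bound by CREB and ATF proteins, stood in 1.546% and in that of Dusp1. The CArG box of serum response factor, 10 bases long, stood in 1.467% and in that of Zfp36, where it begins 58 bases before the start. GGGCGG, the GC box of Sp1, stood in 32.74% and in 6 of the 8, CCAAT in 33.85% and in Jun and Junb, and TGANTCA, the AP-1 site, in 6.749% and in none of the 8 within this window. In the Dusp1 promoter no motif overlaps another, in that of Atf3 a pair of GC boxes overlaps by 2 bases, and in that of Zfp36 the CArG box overlaps a GC box by 1 base. The 5 promoters below are those of 3 genes that read higher on the arrays with high endothelial transcripts, Fos, Dusp1 and Atf3, and of 2 that read highest in wild-type replicate 3, Junb and Zfp36. Each runs 5′ to 3′ up to the base before the start, with matches to these motifs in capitals.
Fos, chr12:85473640-85473889, plus strand: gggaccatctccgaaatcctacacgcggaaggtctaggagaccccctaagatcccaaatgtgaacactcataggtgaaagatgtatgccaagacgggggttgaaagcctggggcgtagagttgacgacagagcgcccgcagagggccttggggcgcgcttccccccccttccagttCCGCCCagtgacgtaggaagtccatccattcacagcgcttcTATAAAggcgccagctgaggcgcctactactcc
Dusp1, chr17:26508473-26508722, minus strand: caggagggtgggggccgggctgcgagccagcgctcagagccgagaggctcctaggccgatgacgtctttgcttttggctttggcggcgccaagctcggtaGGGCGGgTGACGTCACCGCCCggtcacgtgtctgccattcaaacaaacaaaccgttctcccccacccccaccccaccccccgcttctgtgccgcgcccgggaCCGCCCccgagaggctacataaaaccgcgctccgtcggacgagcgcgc
Atf3, chr1:191183334-191183583, minus strand: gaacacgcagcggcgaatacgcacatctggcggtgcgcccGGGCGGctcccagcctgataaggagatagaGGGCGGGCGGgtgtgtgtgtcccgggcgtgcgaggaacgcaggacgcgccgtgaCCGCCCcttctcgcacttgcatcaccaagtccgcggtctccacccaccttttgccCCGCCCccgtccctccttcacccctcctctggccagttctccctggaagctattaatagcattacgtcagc
Junb, chr8:84978749-84978998, minus strand: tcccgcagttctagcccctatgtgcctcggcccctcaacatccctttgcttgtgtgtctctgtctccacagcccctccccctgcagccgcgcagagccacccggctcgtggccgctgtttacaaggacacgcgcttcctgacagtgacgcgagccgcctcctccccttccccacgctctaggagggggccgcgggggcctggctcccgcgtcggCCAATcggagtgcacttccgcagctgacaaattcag
Zfp36, chr7:28379229-28379478, minus strand: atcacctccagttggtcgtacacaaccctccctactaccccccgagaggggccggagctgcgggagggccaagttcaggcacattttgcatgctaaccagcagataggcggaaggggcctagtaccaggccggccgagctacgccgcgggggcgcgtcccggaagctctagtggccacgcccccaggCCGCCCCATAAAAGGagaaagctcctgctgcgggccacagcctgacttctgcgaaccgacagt
A match is a description of letters, and Fos, Dusp1 and Atf3 share no motif of this search other than the GC box, which Zfp36 holds as well.

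Outside the 10 genes, the pattern of their mean was closest to that of Degs1, Tpm4, Zfp36l1, Ramp2, Arap3, Ets2, Ckap4, Cemip2, Gimap4 and Col4a1. These had the highest Pearson's r over the 7 arrays with the mean of the members, each centred on its own mean, among 150 other genes with a mean log2 level of at least 6 and an SD of at least 0.5. Their r was 0.95 to 0.98, given as the measure of likeness without a test. The mean of the members is itself higher on the 3 arrays with high endothelial transcripts, so a gene chosen for its likeness to it has to be high there too, and the levels below are a description. Zfp36l1, a relative of Zfp36, read 7.53, 7.43 and 7.73 on those 3 arrays and 6.16 to 6.48 elsewhere. Col4a1, a collagen of basement membranes, read 8.31, 8.58 and 8.69 on the same arrays and 6.43 to 6.99 elsewhere, and Ets2, an ETS factor, 7.44, 7.66 and 7.90 against 6.02 to 6.38.

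The other genes of the AP-1 family showed no call. Of 14 listed 13 were measured, and 0 passed in either direction, 4 with a higher and 9 with a lower mean in TFIIA nc/nc (median difference −0.08 against −0.01 over all genes). The members with the smallest p were Batf3 (difference 0.33, SE 0.22), Jdp2, an AP-1 repressor (−0.17, SE 0.18), Fosl1 (−0.14, SE 0.16), Fosl2 (−0.20, SE 0.26) and Atf4, the factor of the integrated stress response (0.10, SE 0.14). Batf3 and Fosl1 were dim, at 2.22 to 3.04 and 2.04 to 2.55 over the arrays, and a second Fosl1 probe set differed by 0.04 and a dim one of Atf4 by −0.26.

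Of 44 other immediate early genes 42 were measured and 0 passed, 24 with a higher and 18 with a lower mean in TFIIA nc/nc (median difference 0.03). Those with the smallest p were the growth factor Hbegf (0.62, SE 0.22), Socs3, an inhibitor of cytokine signalling (0.62, SE 0.22), the prostaglandin synthase Ptgs2 (−0.31, SE 0.15), the factor Cebpb (−0.73, SE 0.38) and the kinase Sgk1 (0.91, SE 0.56). Dimmer Socs3 probe sets differed by −0.09 and 0.12. Ptgs2 was dim, at 1.80 to 2.41 over the arrays, and its other probe set differed by −0.01. On the 3 arrays with high endothelial transcripts 8 of the 42 read above all other arrays, as 5.55% of all genes did. These were Klf2, Dusp6, Ccn2, Ppp1r15a, Sgk1, Zfp36l1, Socs3 and Plk2. Another 3 read below (4.87% of all genes did), namely Dusp2, Zfp36l2 and Cebpb. These 11 genes were picked out after their values were seen, each by its brightest probe set. Dimmer probe sets of Socs3, Zfp36l2 and Cebpb did not set the 3 arrays apart, while that of Zfp36l1 read above too. Klf2, a factor of endothelial and lymphoid cells, read 4.39, 4.62 and 5.07 on those arrays and 2.99 to 3.49 elsewhere. Ccn2, a matricellular protein, read 5.87, 5.96 and 6.15 on those arrays and 1.96 to 3.30 elsewhere. Egr2, Nr4a1 and Nr4a3, induced with Egr1 in many cells, differed by −0.24, 0.07 and −0.07 and were named after their values were seen.

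Of 27 kinases and factors upstream of the immediate early genes 20 were measured and 0 passed, 11 with a higher and 9 with a lower mean (median difference 0.01). Map2k6, a kinase of the p38 branch, differed by −0.48 (SE 0.21) and Mapk9, a JNK, by 0.34 (SE 0.17). All 3 TFIIA nc/nc samples lay above all 4 wild-type samples for Mapk9, 1 of the 20 genes, as for 3.23% of all genes. The differences were 0.26 for Map2k3, 0.21 for Map2k1 and 0.22 for Mapk8. Dimmer Mapk9 probe sets differed by 0.04 and −0.09.

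Of 16 genes known as AP-1 targets 15 were measured and 0 passed, 6 with a higher and 9 with a lower mean (median difference −0.01). Ccnd1, the G1 cyclin D1, read 7.63, 7.78 and 7.32 in TFIIA nc/nc and 6.59 to 6.68 in wild type (difference 0.94, SE 0.15). Its Benjamini-Hochberg adjusted p in limma was 0.323. It lay above wild type in 3 of 3 samples, as did 3.23% of all genes, while the other pair of Ccnd1 probe sets gave 0.95 and 0.85 with overlapping groups. Vegfa, dim at 2.80 to 2.93 in TFIIA nc/nc and 3.35 to 3.42 in wild type, differed by −0.51 (SE 0.13), and its other probe set by −0.12. In that direction the groups did not overlap for 3.07% of all genes. The metallothioneins Mt1 and Mt2 differed by 1.41 (SE 0.73) and 1.15 (SE 0.85). Both read highest on the 3 arrays with high endothelial transcripts, as 3 of the 15 genes and 5.55% of all genes did. In the other direction 1 of the 15 read below all others there, as 4.87% of all genes did. Fasl, the Fas ligand, differed by −0.31 (SE 0.26). Each of Mt1 and Fasl had a dim second probe set of opposite sign, near 0. The Fasl probe set used was itself dim, at 1.76 to 2.94 over the arrays.

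Of 11 heat shock genes, which tissue handling also induces, 10 were measured and 0 passed, 7 with a higher and 3 with a lower mean (median difference 0.19). Hsph1 differed by 0.54 (SE 0.18), Hspd1 by 0.53 (SE 0.18), Dnaja1 by 0.39 (SE 0.21), Hspa8 by 0.20 (SE 0.13) and Hspb1 by −0.31 (SE 0.22). All 3 TFIIA nc/nc samples lay above all 4 wild-type samples for Hsph1, Hspd1 and Hspa8, as for 3.23% of all genes. Other Hspa8 probe sets differed by −0.08, 0.10 and 0.52. None of the 10 read above all others on the 3 arrays with high endothelial transcripts and 1, Dnajb1, named after its values were seen, read below, against 5.55% and 4.87% of all genes, so these counts are near the background.

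**Figure D4:**
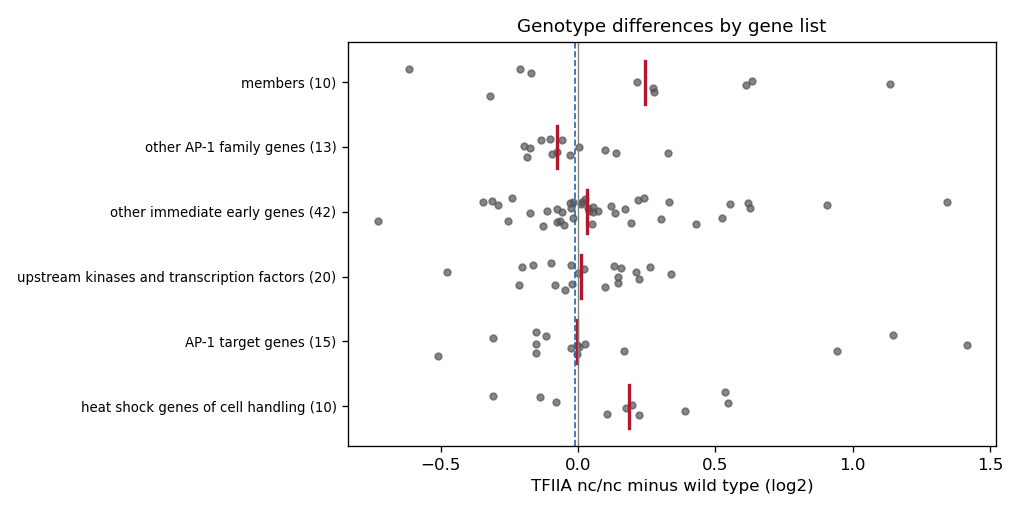
Difference between the genotypes (horizontal axis, log2, TFIIA nc/nc minus wild type) for the genes of 6 lists, 1 point per gene, with the number measured in brackets, a red bar at the median of each list and a dashed blue line at the median of all genes, −0.01. The medians are 0.24 for the 10 members, −0.08, 0.03, 0.01 and −0.01 for the next 4 lists and 0.19 for the heat shock genes, and no gene shown passed the adjusted threshold. The median of the 10 members ranged from 0.02 to 0.32 under other settings.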

How the data were processed

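The authors deposited an intensity for each probe set, which the submitters' processing notes tie to RMA in Affymetrix Expression Console, and the labels' protocols name amplification from the 3' end. For these programs the version is not given in the sources used here. The deposited intensity was on a linear scale, and log2 was taken without a pseudocount. Array medians were then 3.69 to 3.82. The number of arrays limits the precision. No batch of arrays was tested, and nothing in the labels ties samples of the 2 genotypes to a shared litter or day.

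Of 22690 probe sets 64 controls were left out. Gene names of the platform annotation were brought up to date by Entrez identifier from a RefSeq table (GRCm38.p6), which matched 12369 of 12393 genes. 20380 probe sets named 1 gene, 691 several and 1555 none. Each gene was represented by its brightest probe set on average. R 4.3.3 ran limma 3.58.1 (lmFit, then eBayes) on all 7 arrays without covariates, 2-sided, with Benjamini-Hochberg adjustment at 0.05, once over genes and once over probe sets. The fit was also run on simulated data with independent noise for each gene. Those data had no division of the arrays by endothelial transcripts, so that run does not cover it. Correlations used exact 2-sided permutation of the arrays. The planned correlation of the members' mean with marker means was not computed, because the endothelial markers split the arrays into clusters. Python 3.11.15 with matplotlib 3.10.9 drew the plots.

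The members and gene lists were chosen with earlier results of these data known. Named were all members, up to 5 genes of smallest p per further list, up to 4 per marker list, the 10 genes most like the members and any gene past the threshold. A few further genes were named after their values were seen, for lying apart on the arrays of high endothelial transcripts or as genes often induced with Egr1. Other settings covered the probe set of a gene, filters on dim genes, normalization, moderation, array weights, covariates, the samples used, the replicate block and leaving out each array.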

Additional observations from a re-analysis of the deposited data

Results flagged for a closer look

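The brighter Jun probe set in wild-type replicate 2 read 3.02, far below the other 3 wild-type samples, which lay at 3.53 to 3.63. Chance sets a sample apart to this degree in about 1 group of 20, and 11 probe sets were examined.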

How the results depend on the processing

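None of the 10 genes passed the adjusted threshold under any alternative it was tested in, 18 to 20 a gene, and the lowest adjusted p was 0.11, for Egr1 with pooled samples only. Atf3, Dusp1, Egr1, Fosb, Ier2, Junb, Jund and Zfp36 kept their direction under every alternative, with ranges of 0.58 to 1.90 for Egr1 and −0.76 to −0.48 for Junb. Each of these genes has a single probe set, so the choice of probe set, the filters and the robust moderation could not change its difference. The Fos difference turned to −0.0067 with the endothelial mean as a covariate, −0.0601 without the arrays of high endothelial transcripts and, with 1 array left out at a time, lay between −0.0591 and 0.405. The Jun difference was −0.25 when the probe set of largest interquartile range was taken. That of the dimmer Jun probe set was 0.21 without the arrays of high endothelial transcripts and 0.32 with pooled samples only, and lay between −0.53 and 0.10 with 1 array left out. The count of genes passing limma, 1 on all arrays, was 0 with either filter on dim genes, 2 with embryo number as a covariate or without the arrays of high endothelial transcripts, 3 with pooled samples only, and 1 to 3 with 1 array left out, the 3 without wild-type replicate 1. Galc, the gene that passed on all arrays, read at most 5.96, so the log2 6 filter left it out before the test. The count of 0 under that filter is therefore no test of Galc, and the filter on the mean also drops dim genes beforehand. The count of probe sets was 0 with the log2 6 filter or without the arrays of high endothelial transcripts, 14 with pooled samples only, and 1 to 2 with 1 array left out, the 2 without wild-type replicate 3. With the replicate number as a block 1 gene passed, and the differences were 0.83 for Egr1 and −0.66 for Junb. No TFIIA nc/nc sample has the number 4, so the block takes wild-type replicate 4 out of the comparison. The differences are therefore the same as with that array left out. The numbers share no stated litter or day. Same-numbered samples deviated from their group means with correlations of 0.38, −0.19 and 0.11 over all genes. TFIIA nc/nc replicates 1 and 2 both correlated best with wild-type replicate 1, and these are the 3 arrays with high endothelial transcripts. Whether the numbers pair the samples is therefore not settled by these correlations. The filter of log2 6 on at least 3 arrays left 3 of the 10 genes, and the filter on the mean left 5. The correlations with Fos had 0 members past the threshold under every alternative run. The alternatives for the correlation with marker means were not run.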
